A study of Mus musculus with 3 samples.

Results

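The Rhox genes were examined as every non-control spot of the array whose gene name starts with Rhox. That rule found 23 Rhox genes, read by 29 probes, among 30458 genes on the array. By the usual division of the cluster, 14 of them belong to the alpha group (Rhox1 to Rhox4 and their copies), 5 to the beta group (Rhox5 to Rhox9) and 4 to the gamma group (Rhox10 to Rhox13). A probe was tested where it was well above background, per the scanner's flag, on all 3 arrays in at least 1 genotype. This left 14 Rhox genes with a tested probe, and 9 without.

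Rhox genes encode homeobox proteins, which bind DNA, and lie side by side on the X chromosome. They are known for expression in testis, ovary, placenta, germ cells and embryonic stem cells. Rhox5, also called Pem, is the founding member and is expressed in embryonic stem cells, in extraembryonic tissue and in Sertoli cells of the testis. Rhox6 and Rhox9 are near copies of each other known from placenta and fetal gonad. The alpha genes arose by repeated local duplication, so that several copies of Rhox2, Rhox3 and Rhox4 are closely alike. DNA methylation is known to keep much of the cluster silent in somatic cells of the embryo.

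The samples were mouse embryoid bodies, aggregates in which embryonic stem cells differentiate, grown for 10 days in suspension on low-attachment plates and without the stem cell cytokine LIF. Mutant embryoid bodies (Dido3deltaCT) made a Dido3 protein cut short at its C terminus, and wild type embryoid bodies were the control. Dido3 is a large chromatin-associated protein made from the Dido1 gene. Each of 3 dual-colour arrays held RNA of 1 mutant and 1 wild type sample, giving 3 biological replicates per genotype. The mutant RNA carried Cy3 on the arrays of replicates 1 and 3 and Cy5 on that of replicate 2, so dyes were not balanced. The labels do not say how many stem cell lines or clones of each genotype were used, and p-values then measure only the spread between these samples. Y-linked Ddx3y was above background in the wild type samples alone, so Y-linked signal and genotype coincided. The tested Dido1 probe gave a log2 ratio of mutant over wild type of 1.74 ± 0.27 (SE, n = 3, limma adjusted p = 0.058). It is not known whether that probe lies in the deleted part, so it checks no label.

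The probe sequences below are those on which the readings turn. All are as printed on the array, 5′ to 3′, with positions on mouse build mm9 from the scanner files. The Rhox13 and Rhox5 probes carry the results of the gamma group and of the founding gene. Rhox13's probe lies on the plus strand at chrX:35474985-35476295, and its 60 bases span 1311 bases of the genome. The file gives Rhox5's probe no position. The Rhox6 probe is at chrX:35182945-35183004 on the plus strand and the Rhox9 probe at chrX:35254147-35254206 on the minus strand.
Rhox13 probe: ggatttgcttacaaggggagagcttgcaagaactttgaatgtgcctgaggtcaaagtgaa
Rhox5 probe: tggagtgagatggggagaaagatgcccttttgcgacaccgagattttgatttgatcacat
Rhox6 probe: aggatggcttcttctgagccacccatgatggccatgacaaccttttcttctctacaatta
Rhox9 probe: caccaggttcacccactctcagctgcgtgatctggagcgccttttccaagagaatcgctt

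Probes of alpha genes can differ by very few bases, which limits what each can say about its own gene. The Rhox4a probe (chrX:34809907-34809966, plus strand) and the Rhox4g probe (chrX:35061172-35061231, minus strand) share 58 of 60 bases. Capitals mark the bases that differ, C54T and T58C from Rhox4a to Rhox4g, with positions counted from the 5′ end.
Rhox4a probe: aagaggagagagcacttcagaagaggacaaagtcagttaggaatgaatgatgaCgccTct
Rhox4g probe: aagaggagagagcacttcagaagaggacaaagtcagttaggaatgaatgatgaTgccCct

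Rhox8 was read by a pair of unlike probes. The probe that passed the filter on dim probes (chrX:35231462-35231521, minus strand) opens with 44 bases of an uninterrupted GAA repeat, in capitals, whereas the other (chrX:35227953-35228012, minus strand) holds no such repeat.
Rhox8 repeat probe: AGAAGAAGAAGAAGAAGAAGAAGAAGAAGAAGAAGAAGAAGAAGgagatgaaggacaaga
Rhox8 probe outside the repeat: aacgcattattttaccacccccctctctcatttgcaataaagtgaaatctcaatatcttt

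Among the 13 tested Rhox genes other than Rhox8, Rhox13 alone passed the threshold, at an adjusted p of 0.0416, and none was lower past it. Rhox13 was 2.94 ± 0.24 log2 units higher in mutant embryoid bodies. That is 1 of 13, or 7.69%, where 0.207% of the 15437 tested genes were higher past the same threshold (adjusted p under 0.05, limma with Benjamini-Hochberg adjustment over all tested genes) and 0.0907% lower. At an unadjusted p under 0.05, 9 of the 13 Rhox genes were higher in the mutant (69.2%), beside 11.4% of all tested genes. The same 9 were higher in the mutant on all 3 arrays, beside 21.7% of all tested genes. In 7 of the 13 (53.8%) the lowest mutant sample lay above the highest wild type sample, beside 11% of all tested genes. The 13 are not all separate readings. Probes of Rhox2c, Rhox2e, Rhox2h, Rhox3e and Rhox4g list 4 RefSeq transcripts each, and the Rhox4a probe is nearly that of Rhox4g. Rhox3e's probe is placed beside that of Rhox3a. These shares may therefore count the same signal more than once. The genes counted passed a filter that a gene can pass through its brighter genotype alone. Of the 13, 10 were well above background on all arrays in both genotypes. Over all genes, 32 were called higher and 14 lower (69.6% higher). The higher share was 57.1% with arrays centred on their median (4 of 7 called) and 57.8% with arrays scaled to each other (63 of 109).

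The median log2 ratio of the 13 Rhox genes was 1.30, with all 13 means above 0 and a range from 0.22 to 2.94. Across all tested genes the median was 0.04, with 8092 of 15437 above 0. By array, the Rhox median was 0.92, 1.24 and 1.76 for replicates 1, 2 and 3, with 10, 12 and 13 of 13 ratios above 0. The ratios of all genes on the array of replicate 2 correlated poorly with the others (Pearson r across genes of 0.151 with replicate 1 and 0.180 with replicate 3, beside 0.879 between replicates 1 and 3). Without the array of replicate 2, the mutant RNA carried Cy3 on both arrays left, so dye and genotype cannot be told apart in that fit. It called 7308 of the 15437 tested genes (47.3%), with 25.7% of all genes higher, and 10 of the 13 Rhox genes were higher past the threshold. Without replicate 1 or without replicate 3, no Rhox gene passed.

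**Figure D1:**
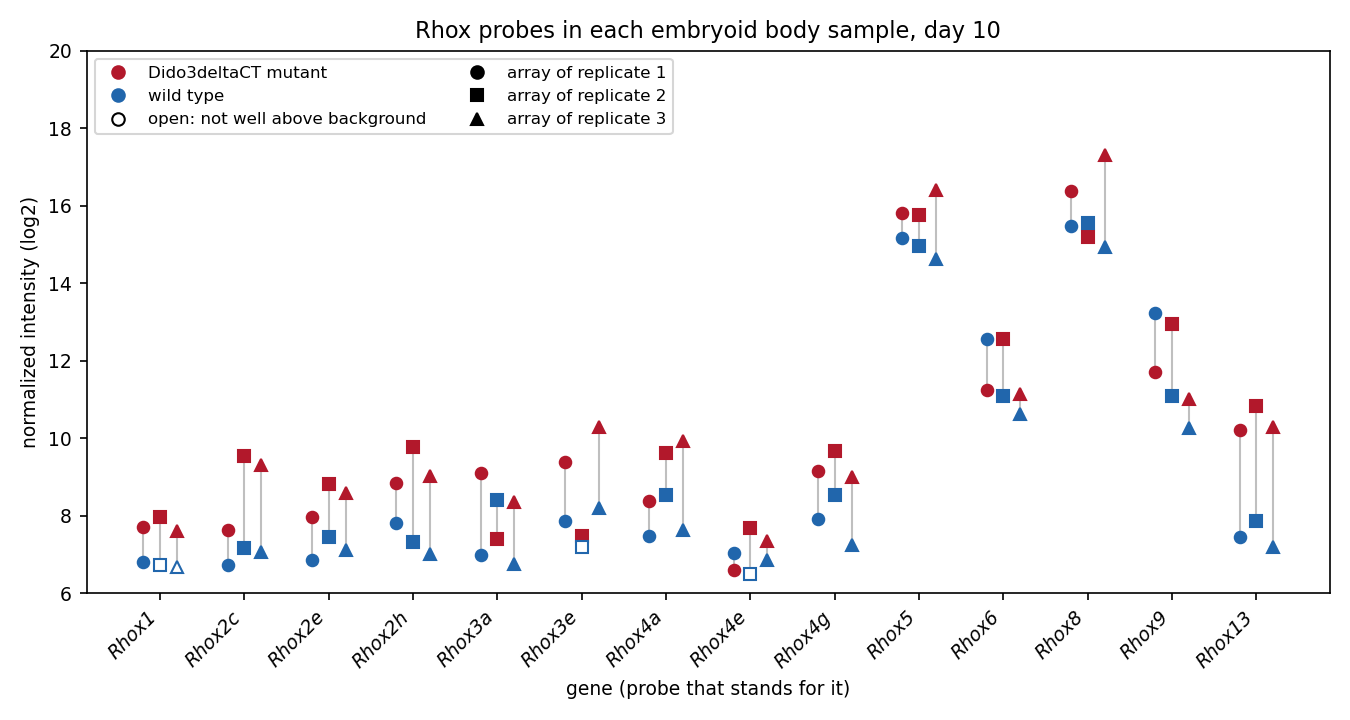
Normalized log2 intensity (vertical axis) of the probe that stands for each of the 14 tested Rhox genes (horizontal axis) in the 3 mutant samples (red) and the 3 wild type samples (blue), with marker shape for the array and a grey line joining the samples of 1 array. Rhox13's mutant samples sit between 10.20 and 10.83 and its wild type samples between 7.20 and 7.85, Rhox6 and Rhox9 turn direction between arrays, and levels of different probes cannot be set against each other.

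Rhox13, the member of the gamma group that passed the test, is known as a gene of fetal and postnatal male germ cells. Its normalized log2 intensity was 10.20, 10.83 and 10.29 in the mutant samples of replicates 1 to 3, and 7.46, 7.85 and 7.20 in the wild type samples. Every mutant sample lay above every wild type sample, and the probe was well above background in all 6. The log2 ratios of the 3 arrays were 2.74, 2.97 and 3.09. Their mean was 2.94 ± 0.24 (SE), with an adjusted p of 0.0416 in the limma fit. The adjusted p lay near the threshold and was 0.106 without replicate 1 and 0.0848 without replicate 3. It was 0.00115 without replicate 2, where dye and genotype coincide. With each spot's own background kept, the ratio was 2.00 and the adjusted p 0.375, the highest of the alternatives run.

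The 3 other gamma genes were dim. Rhox10, also a male germ cell gene, had a probe above background in 2 of 3 mutant samples and in 0 of 3 wild type samples. Its log2 intensity was 6.98, 6.70 and 6.51 in the mutant and 6.32, 6.89 and 6.33 in the wild type, so the genotypes overlapped. The log2 ratios were 0.66, -0.19 and 0.18, and no fold is given for these dim values. The other Rhox10 probe was above background in 0 mutant samples and 1 wild type sample. Rhox11's probe was above background in no sample. Rhox12 gave log2 ratios of -0.92, 0.42 and 0.21, above background in 2 mutant samples and 1 wild type sample, with its highest value, 7.87, in the wild type sample of replicate 1.

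In the alpha group all 9 tested alpha genes had a mean ratio above 0, with a median of 1.31 and a range from 0.41 to 1.84, and none passed the threshold. Rhox1, the gene whose probe is the first of the cluster, had log2 intensities of 7.70, 7.96 and 7.61 in the mutant and 6.81, 6.72 and 6.68 in the wild type. The genotypes did not overlap, and the wild type was above background in 1 of 3 samples, so the wild type level is mostly a bound. Its mean ratio was 1.02 ± 0.24 (adjusted p = 0.10).

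The 3 tested Rhox2 copies were alike in direction. Rhox2c read 7.63, 9.54 and 9.30 in the mutant and 6.72, 7.17 and 7.07 in the wild type, a ratio of 1.84 ± 0.37 (adjusted p = 0.0773). Rhox2e read 7.97, 8.81 and 8.59 against 6.86, 7.46 and 7.12, a ratio of 1.31 ± 0.24 (adjusted p = 0.0697). Rhox2h read 8.85, 9.76 and 9.02 against 7.82, 7.33 and 7.01, a ratio of 1.82 ± 0.35 (adjusted p = 0.0727). In each of these the mutant samples lay wholly above the wild type samples. A dimmer Rhox2h probe, above background in 2 of 3 wild type samples, gave ratios of 0.55, 0.98 and 1.59, again without overlap. The probes that stand for Rhox2c, Rhox2e, Rhox2h, Rhox3e and Rhox4g list 4 RefSeq transcripts each, so which copy gave the signal is uncertain.

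Rhox4 copies split. Rhox4g read 9.14, 9.68 and 9.01 in the mutant and 7.90, 8.53 and 7.24 in the wild type, without overlap, a ratio of 1.39 ± 0.26 (adjusted p = 0.0715). Rhox4a, whose probe is nearly that of Rhox4g, read 8.37, 9.62 and 9.92 against 7.48, 8.55 and 7.63, a ratio of 1.42 ± 0.36 (adjusted p = 0.113). Its lowest mutant sample lay below its highest wild type sample, although each array's own ratio was above 0. Rhox4e read 6.59, 7.67 and 7.35 against 7.03, 6.50 and 6.85, a ratio of 0.41 ± 0.37 (adjusted p = 0.557), with replicate 1 in the opposite direction. Its probe was dim, with the wild type above background in 2 of 3 samples. It is mostly a short tandem repeat, and nearly the same stretch lies near the start of Rhox4a. Whether Rhox4e itself differed from Rhox4a and Rhox4g is therefore uncertain.

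For the Rhox3 copies the array of replicate 2 stood apart. Rhox3a read 9.10, 7.39 and 8.36 in the mutant and 6.98, 8.42 and 6.76 in the wild type, with log2 ratios of 2.12, -1.03 and 1.60. The mean was 0.89 ± 0.66 (adjusted p = 0.471). Rhox3e read 9.39, 7.47 and 10.29 against 7.87, 7.19 and 8.20, with ratios of 1.52, 0.27 and 2.09 and a mean of 1.30 ± 0.41 (adjusted p = 0.159). Its probe was placed 41.4 kb from the first Rhox probe, beside that of Rhox3a at 44.9 kb. In RefSeq, Rhox3e starts between Rhox2e and Rhox4e, whose probes lie at 202.2 and 218 kb. Both Rhox3 probes may therefore read the same copy. Without replicate 2 the mean ratio was 1.86 for Rhox3a and 1.81 for Rhox3e, from arrays on which dye and genotype coincide. Of the untested alpha genes, Rhox3f, Rhox3h and Rhox4b were above background in at most 1 sample of each genotype, and Rhox3-ps and Rhox3g-ps in none.

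**Figure D2:**
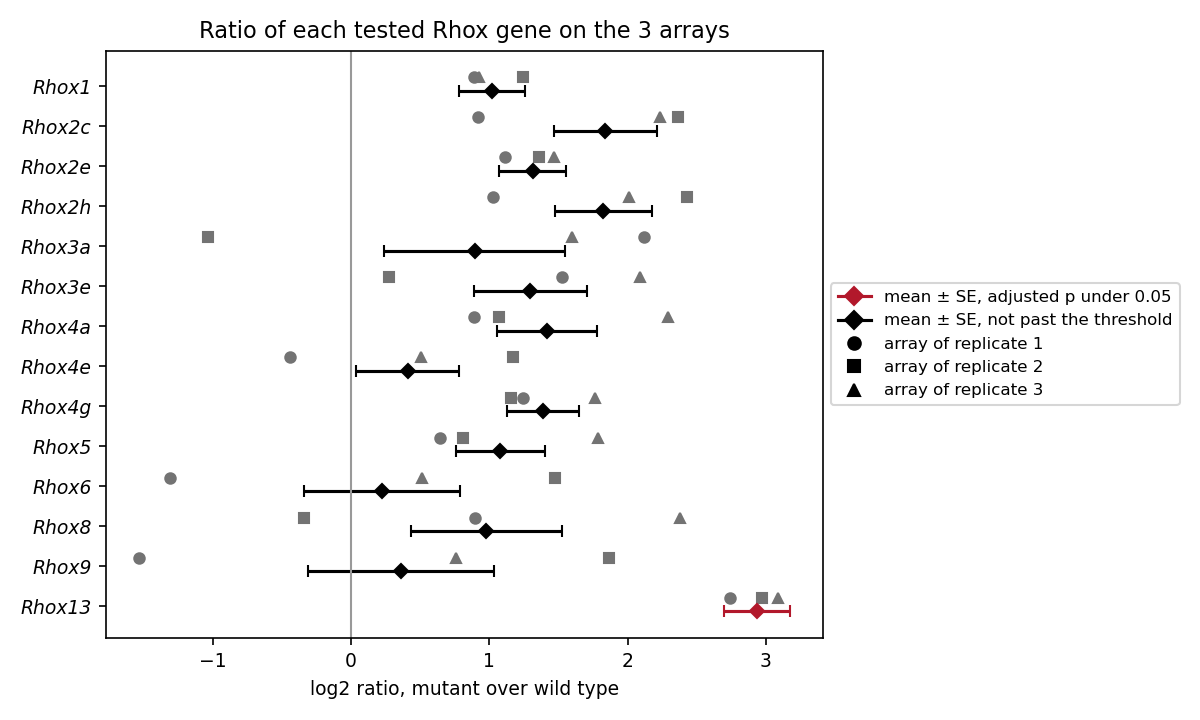
Log2 ratio of mutant over wild type (horizontal axis) for each of the 14 tested Rhox genes, with grey markers for the 3 arrays and a diamond with bar for the mean ± SE of the limma fit, red where the adjusted p was under 0.05. Rhox13 is the diamond past the threshold at 2.94, while the arrays of Rhox3a, Rhox4e, Rhox6, Rhox8 and Rhox9 fall on both sides of 0.

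In the beta group, Rhox5 was well above background in all 6 samples. Its log2 intensity was 15.81, 15.76 and 16.41 in the mutant and 15.17, 14.95 and 14.62 in the wild type, and the genotypes did not overlap. The ratios were 0.64, 0.81 and 1.78, with a mean of 1.08 ± 0.32 (adjusted p = 0.146). The difference did not pass the threshold, and the ratio of replicate 3 was the highest of the 3.

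Rhox6 and Rhox9 changed direction together. Rhox6 read 11.24, 12.56 and 11.14 in the mutant and 12.55, 11.09 and 10.62 in the wild type, giving ratios of -1.31, 1.47 and 0.52. Rhox9 read 11.70, 12.96 and 11.02 against 13.24, 11.09 and 10.27, giving ratios of -1.54, 1.87 and 0.76. Both were lower in the mutant on the array of replicate 1 and higher on those of replicates 2 and 3. On each array the ratios of these near copies lay close together, Rhox9 minus Rhox6 being -0.22, 0.40 and 0.24. The mean ratio was 0.22 ± 0.56 for Rhox6 (adjusted p = 0.839) and 0.36 ± 0.67 for Rhox9 (adjusted p = 0.779). Rhox6's mean turned to -0.10 with arrays centred on their median, and without replicate 2 the means were -0.40 for Rhox6 and -0.39 for Rhox9. The wild type sample of replicate 1 held the highest wild type level of both genes.

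Placental markers of the same arrays were set beside them. Of 13 tested trophoblast and placenta markers of 20 listed, 9 had a mean ratio above 0 and none passed the threshold, with a median of 0.49. These counts take in Gcm1 (1.91, -0.15 and 2.65), whose probe holds a 19-base run of the GAA repeat and may not read Gcm1 itself. By array, 2 of the 13 were lower on replicate 1 and higher on replicates 2 and 3, as Rhox6 and Rhox9 were. These were Prl3b1, a placental lactogen (-0.77, 2.17 and 0.07), and the trophoblast keratin Krt7 (-1.92, 0.97 and 0.34), named for that after their values were seen. Prl3b1's ratio on replicate 3 lay near 0. How many of all tested genes show this order of signs was not counted, so no weight is put on the count. Another 5 (Ets2, Gata3, Gcm1, Peg10 and Plac1) were lower on replicate 2 alone, such as Gata3 at 0.16, -1.17 and 1.02, while 4 were higher and 2 lower on all 3 arrays. Cdx2, a trophoblast and caudal homeobox factor, gave a mean of -1.71 ± 0.29 (adjusted p = 0.063), Tfap2c 1.32 ± 0.26 (adjusted p = 0.0763) and Ascl2 1.80 ± 0.37 (adjusted p = 0.0787). Tpbpa was above background in no sample. The log2 of the summed intensity of 12 of these markers, Gcm1 left out since its probe holds a 19-base run of the GAA repeat, lay between 14.07 and 14.17 in the mutant and between 13.48 and 13.84 in the wild type. The part of trophoblast content in the Rhox6 and Rhox9 values was not tested. In RNA from whole embryoid bodies, fewer cells of a type and less RNA per cell cannot be told apart.

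Rhox8's tested probe, mostly GAA repeat, read like other probes of that repeat and was left out of the counts above. It gave log2 intensities of 16.37, 15.20 and 17.31 in the mutant and 15.47, 15.55 and 14.93 in the wild type, with ratios of 0.90, -0.34 and 2.38 and a mean of 0.98 ± 0.55 (adjusted p = 0.355). On the array, 31 other probes held the GAA unit 8 times in a row on either strand, and all 31 were well above background in every sample. Their mean log2 intensities ran from 16.07 to 16.76 in the mutant and from 14.71 to 15.62 in the wild type. Their median ratios by array were 1.47, 0.00 and 2.11, with ranges from 0.98 to 2.49, from -1.12 to 0.65 and from 1.61 to 3.03. The Rhox8 repeat probe lay within these ranges for replicates 2 and 3 and just below for replicate 1. Rhox8's probe outside the repeat read 6.74, 6.80 and 6.72 in the mutant and 7.03, 6.36 and 7.02 in the wild type, above background in 2 samples of each genotype, with a mean ratio of -0.05 and overlapping genotypes. Rhox7, the remaining beta gene, had a probe above background in 1 mutant and 2 wild type samples, and another above background in none.

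**Figure D3:**
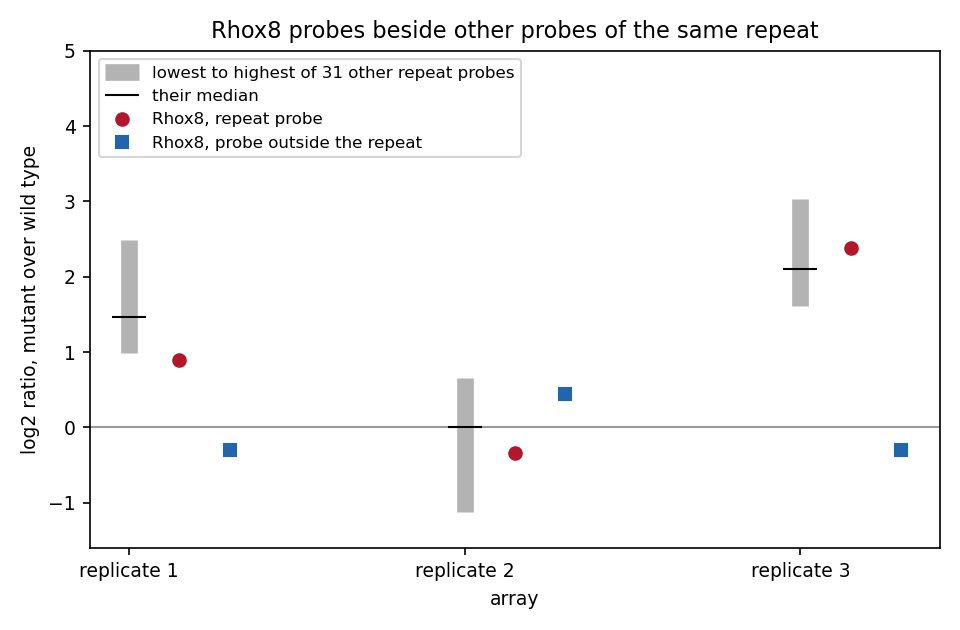
Log2 ratio of mutant over wild type (vertical axis) on the 3 arrays (horizontal axis) for the Rhox8 repeat probe (red circles), the Rhox8 probe outside the repeat (blue squares) and the lowest to highest value (grey bar) and median (black line) of the 31 other probes with the same repeat. The repeat probe moves with the grey bars from array to array, from -0.34 to 2.38, while the probe outside the repeat stays between -0.30 and 0.45.

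Along the X chromosome, the 28 placed Rhox probes covered 722.3 kb, from 34753955 to 35476295 in mm9. Within 1 Mb of them lay 39 other genes, of which 25 were tested. None passed the threshold, 18 had a mean ratio above 0 and the median was 0.11. The 3 of smallest p were an unnamed transcript inside the cluster (NAP103898-1, 1.59 ± 0.24, adjusted p = 0.0573), Gm9 next to Rhox1 (2.13 ± 0.38, adjusted p = 0.0675) and the membrane haem-binding protein gene Pgrmc1 (-1.12 ± 0.26, adjusted p = 0.0953). Gm9 gave 1.26, 2.23 and 2.89 on the 3 arrays, and its probe lay 4.6 kb from that of Rhox1. Zbtb33, a methyl-DNA binding factor gene just past Rhox13, gave -0.34 ± 0.36 (adjusted p = 0.61). The difference between Rhox genes and their neighbours was not tested.

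**Figure D4:**
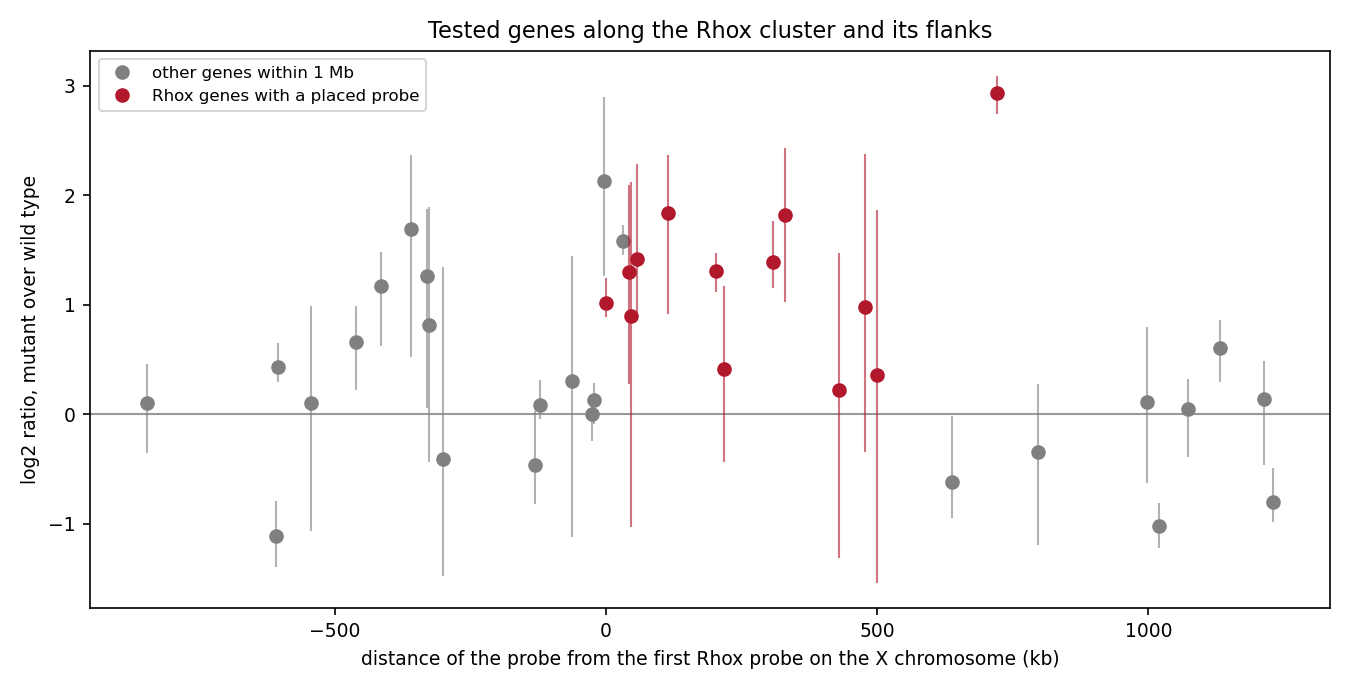
Mean log2 ratio of mutant over wild type (vertical axis, dots) and the range of the 3 arrays (lines) for tested Rhox genes with a placed probe (red) and other tested genes within 1 Mb (grey), by distance in kb from the first Rhox probe (horizontal axis). All red dots lie above 0, from 0.22 to 2.94, and 18 of the 25 grey dots do. The red dot at 477.5 kb is the Rhox8 repeat probe, which was left out of the Rhox counts. Rhox8's probe outside the repeat, not drawn, had a mean ratio of -0.05.

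Away from the cluster, 644 tested genes of the X chromosome had a median ratio of 0.07, with 10 higher (1.55%) and 0 lower past the threshold. The 14594 autosomal genes had a median of 0.03, with 21 higher (0.144%) and 12 lower. Y-linked Eif2s3y gave -6.17 ± 0.36 and Ddx3y -4.56 ± 0.28 (adjusted p = 0.0371 for each), with Ddx3y above background in 0 of 3 mutant samples and 3 of 3 wild type samples. The 2 Xist probes were above background in 0 samples. By its flags, Ddx3y signal was found in every wild type sample and in no mutant sample. The part of the sex chromosomes in the Rhox values therefore cannot be told apart from genotype here and was not tested.

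Genes known to be silenced like the cluster, by promoter methylation, were set beside it. Of 26 such germline genes, 22 were tested, and 3 rose: the testis cytochrome Cyct (4.87 ± 0.24, adjusted p = 0.0195), the synaptonemal complex gene Syce1 (2.76 ± 0.23, adjusted p = 0.0416) and the testis tubulin Tuba3a (3.36 ± 0.32, adjusted p = 0.0432). None fell, 21 had a mean above 0, 19 were higher in the mutant on all 3 arrays, and the median was 1.88. Across all tested genes, 0.207% were called higher, 21.7% were higher on all 3 arrays and 8092 of 15437 had a mean above 0. The list was chosen with earlier results of these data known. Among 21 tested genes for methylation enzymes and chromatin repressors, none passed. Dnmt3b, a de novo DNA methyltransferase, gave 2.07 ± 0.30 (adjusted p = 0.0558), its partner Dnmt3l 2.21 ± 0.40 (adjusted p = 0.0677) and the methylcytosine oxidase Tet2 1.09 ± 0.27 (adjusted p = 0.107). Maintenance methyltransferase Dnmt1 gave -0.30 ± 0.35 (adjusted p = 0.649).

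Promoter sequence was available from RefSeq (GRCm38.p6, 250 bases before to 50 after the start) for 18 of the 23 Rhox genes. CG pairs, the sites that DNA methylation acts on, numbered 6 per promoter at the median, beside 7 over 32851 promoters of that length. The CG count reads the same on both strands. Rhox13 (chrX:38120590-38120889, plus strand) and Rhox5 (chrX:37754358-37754657, plus strand) held 5 each, and 62% of all promoters held as many or more. They are shown as the called gene and the founding gene, with CG in capitals. Methylation was not measured here.
Rhox13 promoter: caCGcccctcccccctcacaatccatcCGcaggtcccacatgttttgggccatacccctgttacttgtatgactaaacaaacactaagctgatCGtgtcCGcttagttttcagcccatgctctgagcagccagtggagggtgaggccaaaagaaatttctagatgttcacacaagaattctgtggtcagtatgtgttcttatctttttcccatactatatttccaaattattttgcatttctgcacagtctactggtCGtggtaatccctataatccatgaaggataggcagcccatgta
Rhox5 promoter: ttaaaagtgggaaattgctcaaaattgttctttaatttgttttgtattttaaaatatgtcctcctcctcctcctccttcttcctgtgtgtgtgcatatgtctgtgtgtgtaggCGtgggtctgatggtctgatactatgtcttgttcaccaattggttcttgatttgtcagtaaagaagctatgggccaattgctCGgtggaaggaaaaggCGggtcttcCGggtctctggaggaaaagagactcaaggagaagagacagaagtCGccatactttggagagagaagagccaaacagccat

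Among the other tested Rhox genes, the Rhox1 promoter held 0 CG pairs, that of Rhox2h 7, that of Rhox4g 10 and that of Rhox4a 12, with 39.6% of all promoters at or above the last count.

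Cell types in which Rhox genes are expressed were read from marker lists, chosen with earlier results known. Across all tested genes, 8092 of 15437 had a mean above 0. All 7 pluripotency markers had a mean above 0 (median 1.99), and Zfp42 (3.17 ± 0.26) and Dppa5a (2.67 ± 0.24) rose, each at an adjusted p of 0.0416. Over all 7, the log2 of summed intensity was 17.08 to 18.34 in the mutant and 14.69 to 15.90 in the wild type. Dppa5a alone read 17.64, 16.42 and 17.75 in the mutant samples, so that sum rests mostly on 1 called gene. Of 11 primordial germ cell markers 9 were above 0 (median 0.73) and none passed. Prdm14 gave 2.04 ± 0.26 (adjusted p = 0.0543), Kit -1.92 ± 0.35 (adjusted p = 0.0698), and Tfap2c was as above. Over all 11, the log2 of summed intensity was 14.52 to 14.95 in the mutant and 13.68 to 14.48 in the wild type. None of 20 extraembryonic endoderm markers was above 0 (median -2.69) and none passed. Sox7 at -2.51 ± 0.27 and Afp at -2.23 ± 0.24 had an adjusted p of 0.0502 each, and Pdgfra at -2.87 ± 0.35 one of 0.0526. Over all 20, the log2 of summed intensity was 14.98 to 17.90 in the mutant and 18.54 to 19.70 in the wild type. Of 3 tested Sertoli cell markers 2 were above 0 and none passed. Of the untested ones, Amh was above background in no sample and Cldn11 in 0 mutant and 2 wild type samples. The tested ones were Sox9 (-1.87 ± 0.30, adjusted p = 0.0597), Gata1 (0.72 ± 0.24, adjusted p = 0.172) and Wt1 (1.63 ± 0.60, adjusted p = 0.203). Of 3 blood markers Hbb-bh1, an embryonic globin, fell (-3.91 ± 0.34, adjusted p = 0.0416), while none of 3 neural and none of 5 mesoderm and heart markers passed. The neural markers were Sox1 (-4.04 ± 0.68, adjusted p = 0.0624), Nes (-0.90 ± 0.53, adjusted p = 0.373) and Tubb3 (0.09 ± 0.48, adjusted p = 0.929). Of the mesoderm and heart markers 1 was above 0. Those of smallest p were Myl7 (-1.69 ± 0.25, adjusted p = 0.0558), Kdr (-0.61 ± 0.24, adjusted p = 0.223) and Nkx2-5 (-0.44 ± 0.24, adjusted p = 0.344). The part of cell composition in the Rhox values was not tested.

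Other homeobox genes of the early embryo and gonad were counted in the same way. Of 11 tested, 7 had a mean above 0 and none passed, with a median of 0.08. Across all tested genes, 8092 of 15437 had a mean above 0 and the median was 0.04. The hindlimb and pituitary factor Pitx1 gave -2.82 ± 0.33 (adjusted p = 0.0502), the stem cell homeobox gene Crxos 1.56 ± 0.40 (adjusted p = 0.116) and Sebox 0.65 ± 0.28 (adjusted p = 0.256). X-linked Esx1, a placental homeobox gene, gave 0.02 ± 0.45 (adjusted p = 0.987). Unc5c, a netrin receptor gene reported to be lowered by Rhox5 in Sertoli cells, gave -2.27 ± 0.50 (adjusted p = 0.0892), with the mutant above background in 1 of 3 samples, and Ins2 was not tested.

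Genes whose 3 array ratios were most like those of the main members were found by the root mean square difference over the 3 arrays, among all tested genes outside the family. Nearest to Rhox13 were Olfr985 (0.106), Pdcl2 (0.192) and D7Ertd143e (0.204). Nearest to Rhox5 were Ndufa4l2 (0.131), Htra1 (0.140) and an unnamed probe, and to Rhox1 LOC666692 (0.027), Dlx4 (0.067) and Kirrel2 (0.073). Rhox6 was nearest to Tpbpb (0.273), CK031974 (0.306) and 1600025M17Rik (0.307), and Rhox9 to Prl2a1 (0.265), Serpinb9f (0.293) and Fthl17a (0.403). With 3 arrays per gene among 15437 genes, these are a description.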

How the data were processed

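Each of 3 arrays on 1 slide held a mutant and a wild type sample, grouped and assigned to dyes by the labels. The deposited scanner files come from Agilent Feature Extraction 10.7.3.1, per the file headers, and give each spot's raw mean intensity and local background in either dye, with a log10 ratio of processed signals. The authors' deposited value table holds log2 ratios. The submitters' processing notes name limma, whose settings are not given in the sources used here. From the intensities, background was corrected by normexp (offset 50, which compresses ratios of dim probes), ratios were normalized by loess within arrays with control spots at weight 0, outlier spots were left out, and signs were turned to mutant over wild type. On replicate 3, 7 spots with background over 10 times the median, a rule taken up with earlier results known, were left out. Levels per sample were scaled between arrays (Aquantile). Tests used limma 3.58.1 in R 4.3.3 against a ratio of 0, two-sided, over 15437 genes (19153 probes passing the filter, the brightest probe standing for a gene), calling genes at a Benjamini-Hochberg adjusted p under 0.05. The fit was tested on simulated ratios drawn independently for each gene and array. That simulation held no dye effect and none of the correlation between these arrays. In the mutant channel 46.5% to 62.5% of probes were well above background and in the wild type channel 48.5% to 74.4%, and the number of arrays limits the precision. Scan date and slide were shared, so no batch could be tested. The members and lists were chosen with earlier results of these data known. Named genes were every Rhox probe, list members past the threshold or else the 3 of smallest p, and the 3 nearest genes of each main member. Krt7, Prl3b1, Gata3, Ets2, Gcm1, Peg10, Plac1, Tpbpa, Esx1, Dnmt1, Zbtb33, Amh, Cldn11 and the Y-linked genes were named beyond that rule after their values were seen. Of the array's probes, 67.9% matched the RefSeq gene table.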

Additional observations from a re-analysis of the deposited data

How the results depend on the processing

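The table of 16 alternatives held 14 planned ones and 2 chosen after seeing the data. Where 46 genes were called and 1 Rhox gene was higher in the analysis reported, 0 genes and 0 Rhox genes were called with each spot's own background kept, 429 and 2 with Agilent's processed log ratios, 7 and 0 with median centring, 2 and 0 without the filter on dim probes, 4 and 0 where both channels had to be above background, 4751 and 9 with a dye term, and 0 and 0 with the authors' deposited values. Replicate 2 alone carried the mutant RNA in Cy5, so the dye term cannot be told apart from that array. At an unadjusted p under 0.05 limma called 1684 genes with own background and 3059 with the authors' values, 5 and 9 of them Rhox genes. Rhox calls stayed at 1 with arrays scaled (109 genes called), the mean over a gene's probes (103), each probe on its own (84), unpaired channels with no replicate block (273), and, added, a normexp offset of 16 (143) and GAA repeat probes left out (112). Leaving out a replicate gave from 5 to 7308 genes and from 0 to 11 Rhox genes, the most without replicate 2, where dye and genotype coincide. Rhox counts here take in Rhox8's repeat probe wherever it was tested. Rhox13's ratio ran from 2.00 to 3.53 and its adjusted p from 0.00115 to 0.375, above 0.05 in 7 of 16 alternatives. Rhox6 reversed to -0.10 with median centring, which moved the median of all genes to -0.22, and over left-out replicates ran from -0.40 to 0.99, with Rhox9 from -0.39 to 1.31, both lowest without replicate 2. The other tested Rhox genes kept their direction in each alternative run. The causes were not tested. The authors' column for replicate 1 correlated at 0.916 with the array of replicate 3 and at 0.771 with its own, so those values may have crossed columns. Signal near background limits Rhox1, Rhox4e and the untested genes.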
